A study of Rattus norvegicus with 9 samples.

Results

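The proteasome genes described here are the genes on the array whose only symbol in the platform annotation starts with Psma, Psmb, Psmc, Psmd, Psme, Psmf or Psmg, with Psmb8 and Psmb9 left out. The rule found 41 of the 10411 genes that have a probe set with 1 symbol. Of these, 40 were among the 6793 genes that passed a filter on low values, and Psmc3ip, at 2.19 to 2.34 log2 units in the 9 rats, lay below it. Of each gene the probe set with the highest mean was used.

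The study measured mRNA of prefrontal cortex in 9 male rats of the inbred Lewis strain, with 1 Affymetrix array per rat. The rats weighed 200 to 250 g, had been housed singly, received no treatment and came from an experiment in which 20 rats underwent behavioural tests; their age is not given in the sources used here. The tissue was the frontal areas Fr1 and Fr2 with the olfactory bulb removed, and the rats were killed 12 days after testing ended. The rats form 1 group, and the labels hold 4 behavioural values per rat, printed without units: sugar feeding, startle, locomotion and plus maze, although the description of the design names no plus maze. Startle ran from 67.7 to 501, locomotion from 536 to 1102, the plus maze value from 0 to 18.7 and sugar feeding from 0.8 to 4.7. The question was whether mRNA levels vary with behaviour among animals of 1 inbred strain. All values below are log2 expression per probe set, and a probe set's level can be compared between rats but not with another probe set's level.

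The proteasome is the barrel-shaped protease that degrades proteins tagged with ubiquitin. Alpha subunits form the outer rings and the gate of the 20S core, beta subunits form the inner rings and carry the proteolytic sites, and the 19S particle recognises, unfolds and feeds in the substrate with a ring of ATPases in its base and a lid that removes ubiquitin. Dedicated chaperones assemble the core and the base and are not part of the finished particle. In neurons, the proteasome turns over synaptic proteins, and inhibiting it is known to alter synaptic plasticity.

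By role, the 41 members were 7 alpha subunits (Psma1 to Psma7), 4 beta subunits without a proteolytic site (Psmb1, Psmb2, Psmb3 and Psmb4), 2 constitutive catalytic beta subunits (Psmb5 and Psmb7) and 1 catalytic subunit of the immunoproteasome (Psmb10). The 19S particle was covered by 5 ATPases (Psmc1 to Psmc5), 3 other base subunits (Psmd1, Psmd2 and Psmd4) and 6 lid subunits (Psmd3, Psmd6, Psmd7, Psmd8, Psmd11 and Psmd13). The others were 3 alternative activators (Psme1, Psme2 and Psme4), the regulator PI31 (Psmf1) and 7 assembly chaperones (Psmg1 to Psmg4, Psmd5, Psmd9 and Psmd10). Psmc3ip, a meiotic recombination cofactor, and Psme3ip1, which binds the activator subunit Psme3, fit the symbol rule but are not proteasome subunits. The catalytic subunit Psmb6 and the activator Psme3 are not members because their probe sets list other genes as well, and 1 probe set shared by Psma3 and Psma3l was left out for the same reason.

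The promoters of 3 genes of the core particle are shown as examples, and each holds the marked match. Psmb2 and Psma3 were below the other rats in rats 8 and 9, and the values of Psmb5 overlapped those of the other rats. Each run is the 250 bases before the RefSeq gene start in build GRCr8, written 5′ to 3′ on the gene's strand, in lower case. The capitals mark the match to TGACNNNGC, which in Psma3 lies on the opposite strand and so is printed as its reverse complement. TGACNNNGC is the core of the antioxidant response element bound by NRF2 and NRF1, the latter being known to raise proteasome gene transcription when the proteasome is inhibited. Psmb2 lies at chr5:144254808-144255057 (plus strand), Psma3 at chr6:95219499-95219748 (plus strand) and Psmb5 at chr15:32047380-32047629 (minus strand).
Psmb2: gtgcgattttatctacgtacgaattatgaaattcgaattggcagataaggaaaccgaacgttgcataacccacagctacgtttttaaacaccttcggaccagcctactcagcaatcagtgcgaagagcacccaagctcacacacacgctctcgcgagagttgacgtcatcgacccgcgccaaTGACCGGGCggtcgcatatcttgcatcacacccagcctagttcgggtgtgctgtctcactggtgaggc
Psma3: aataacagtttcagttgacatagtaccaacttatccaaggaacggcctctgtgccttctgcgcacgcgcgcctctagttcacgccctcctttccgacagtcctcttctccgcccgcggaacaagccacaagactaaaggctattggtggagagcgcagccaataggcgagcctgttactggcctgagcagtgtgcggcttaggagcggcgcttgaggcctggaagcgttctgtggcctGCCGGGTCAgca
Psmb5: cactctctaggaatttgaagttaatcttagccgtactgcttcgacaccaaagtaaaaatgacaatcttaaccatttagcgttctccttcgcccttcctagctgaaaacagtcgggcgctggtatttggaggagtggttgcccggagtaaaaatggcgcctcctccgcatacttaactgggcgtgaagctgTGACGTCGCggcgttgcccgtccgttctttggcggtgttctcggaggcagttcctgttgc

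The searched letters were read on both strands in the 39 members with a promoter in the table (Psma7 and Psmd6 had no entry). TGACNNNGC was found in 6 of the 39 members (15.4%) and in 10.5% of the 21851 promoters of protein-coding genes. CCAAT was found in 20 members (51.3%) against 35.0%, and CCGGAAG, the core of an ETS factor site, in 11 members (28.2%) against 9.01%. These counts include Psmc3ip and Psme3ip1, which are not subunits and each hold both CCAAT and CCGGAAG. In Psmb2 the match TGACCGGGC, 60 to 68 bases before the start, overlapped a CCAAT at 68 to 72 bases by 1 base. A match of letters is a description of the sequence and not a binding site.

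An earlier analysis of these data set 2 arrays apart, those of rats 8 and 9. The labels name no batch, and because that division came from the expression values themselves, differences of these arrays are described without a test and the relations with behaviour are given with and without them. On control probe sets, the 3′ minus 5′ signal, which grows with RNA degradation, was 2.29 to 2.45 log2 units for beta-actin in rats 8 and 9 against 2.52 to 3.08 in the others. For hexokinase it was 1.14 to 2.02 against 2.41 to 2.91, and for GAPDH the ranges overlapped. Array medians ran from 4.11 to 4.28. The general neuron markers on the array all passed the filter (5 of 5), with mean levels of 11.28 to 11.30 in rats 8 and 9 and 11.2 to 11.4 in the others, while none of 3 choroid plexus markers passed. Of 6 inhibitory neuron markers tested, 3 lay lower and 1 higher in both arrays, with a median difference of -0.21, and of 6 astrocyte markers 2 lay lower, with a median of 0.054. Median differences were 0.56 for the 2 cortical excitatory neuron markers tested and 0.25 for the 5 oligodendrocyte markers, none of them outside the other rats in both arrays. The red blood cell markers (2 tested) averaged 7.18 to 8.09 in rats 8 and 9 and 6.62 to 7.38 in the others. The part of RNA quality and of cell composition in the results was not tested. The tissue is a mixture of cell types, so fewer cells of a type and less RNA per cell cannot be told apart.

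The median spread of the proteasome genes between these rats was somewhat below that of all genes. The median SD over the 9 rats was 0.156 log2 units for the 40 members tested and 0.185 for all 6793 genes. In rats 1 to 7 the medians were 0.116 and 0.152. The steadiest member was Psmc4, an ATPase of the 19S ring, which ran from 9.20 to 9.36 around a median of 9.25, a span of 1.11-fold. The alpha subunit Psma6, at 10.10 to 10.26, was nearly as steady. The base chaperone Psmd9 also had a small span, 3.91 to 4.13, but it lay low on the scale, not far above the filter cut of 3.22. At the other end stood Psmd5, a chaperone of the base, which ran from 5.67 to 7.37 around a median of 6.93, a span of 3.26-fold. That span was made by single rats: Psmd5 was low in rat 8 and, at 6.51, in rat 1, and high in rat 2.

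**Figure D1:**
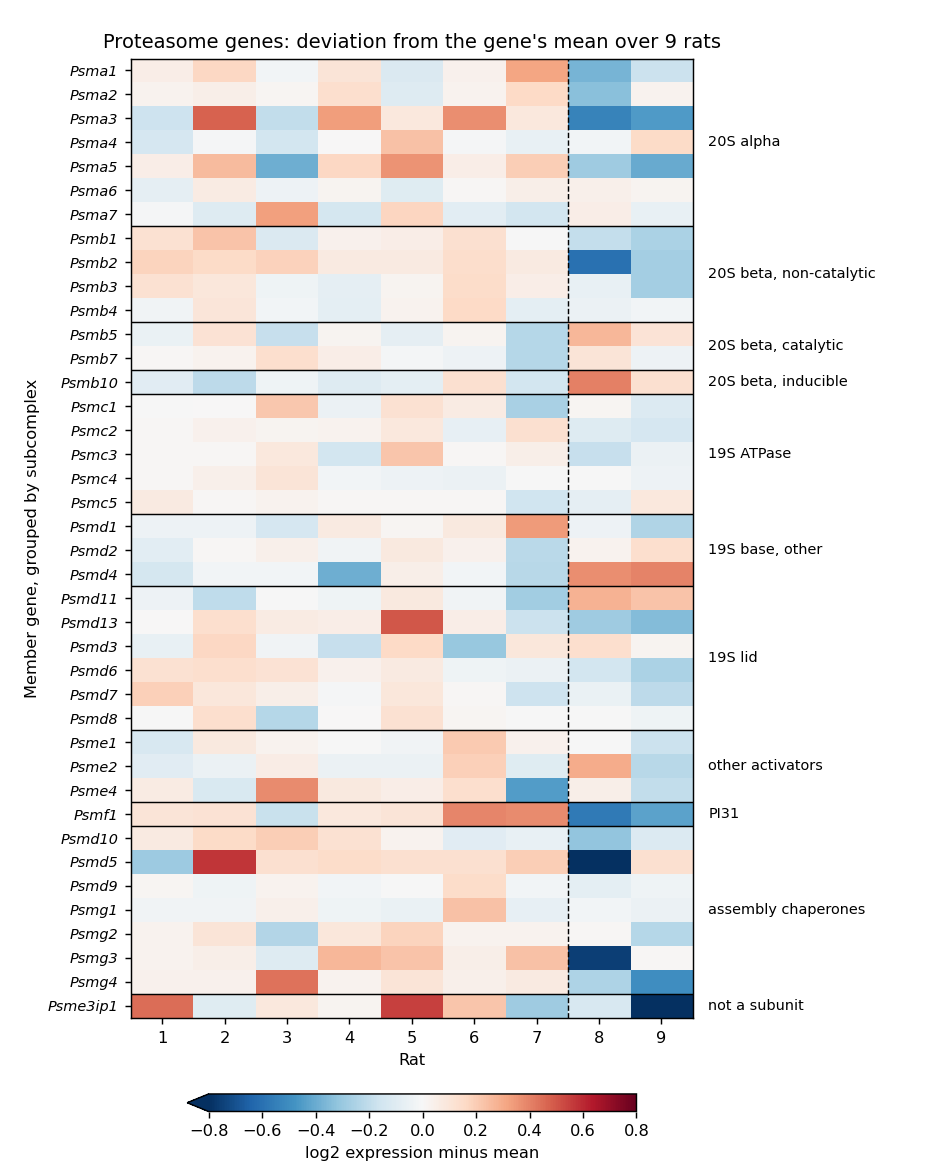
Deviation of each of the 40 members tested from its own mean over the 9 rats, in log2 units; rows are genes grouped by subcomplex, columns are rats, and colours stop at 0.8 below and above the mean. The dashed line sets off rats 8 and 9; rat 9 had the lowest value of all rats in 12 members, rat 8 in 10 and rat 7 in 9, and Psmc4 is nearly colourless across the row.

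The map of deviations by rat shows which animals held the lowest values. Rat 9 was the lowest of the 9 rats for 12 of 40 members (30.0%, against 22.2% of all genes), rat 8 for 10 (25%, against 22.0%) and rat 7 for 9 (22.5%, against 12.5%). Rat 1 was lowest for 0 members and highest for 1. Rat 7 was lowest for both catalytic subunits, Psmb5 (10.35) and Psmb7 (10.41), and for the activator Psme4 (4.66), but highest for the alpha subunits Psma1 (8.85) and Psma2 (9.54), so no rat was low across the whole particle.

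Taken gene by gene, rat 8 lay below all of rats 1 to 7 in 15 of 40 members, where 29.5% of all genes did so, and rat 9 in 17 of 40, where 34.4% of all genes did so. Both arrays lay below the other 7 in 10 of 40 members (against 19.7% of all genes) and above them in 3 of 40 (against 6.58%). Either way, 13 members stood outside (32.5%, beside 26.3% of all genes). The difference of means, rats 8 and 9 minus rats 1 to 7, was negative in 29 members (72.5%, against 69.5%), with a median of -0.129 log2 units in the members and -0.0853 in all genes. These shares lay near those of the array as a whole.

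Among the alpha subunits, which form the outer rings and the gate, Psma3 had the largest difference. Its values were 6.94 in rat 8 and 7.03 in rat 9, and 7.28 to 7.95 around a median of 7.56 in rats 1 to 7, a difference of -0.63. Psma1 was also below the others in both arrays (8.16 and 8.37, against 8.42 to 8.85). Psma5 was at 8.81 and 8.69, but rat 3, at 8.71, was as low, so the groups overlapped. Psma2 was low in rat 8 alone (9.05), at 9.41 in rat 9. Psma4, Psma6 and Psma7 differed by 0.08, 0.04 and -0.0042, all within the range of the other rats.

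Of the 4 beta subunits without a proteolytic site, Psmb1 and Psmb2 were below the others in both arrays. Psmb2 was at 7.96 in rat 8 and 8.29 in rat 9, whereas rats 1 to 7 lay within 8.63 to 8.74. Both arrays therefore fell outside a range of the other 7 that was narrow (SD 0.0515), and the difference was -0.56. Psmb1 was at 10.09 and 10.03, against 10.17 to 10.51 in the others. Psmb3 was below them in rat 9 (8.63, against 8.83 to 9.05) and inside their range in rat 8 (8.84). Psmb4 overlapped the other rats, with a difference of -0.04.

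The catalytic beta subunits did not follow. Psmb5, which carries the chymotrypsin-like site, was at 10.85 in rat 8 and 10.69 in rat 9, the upper end of the 10.35 to 10.69 of the other rats, and its difference was 0.24. Psmb7, which carries the trypsin-like site, was at 10.75 and 10.60 and lay inside the 10.41 to 10.78 of the others. Psmb10, the immunoproteasome counterpart of Psmb7, was at 5.66 and 5.38, and rats 1 to 7 had 5.04 to 5.38 around a median of 5.16. Both arrays were above the other 7, rat 9 by a margin that vanishes at this rounding, and the difference was 0.34.

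In the 19S base, the ubiquitin receptor Psmd4 (Rpn10) had the largest positive difference of all members. It was at 8.60 and 8.62, with 7.83 to 8.27 around a median of 8.20 in the other 7, a difference of 0.49. The scaffold subunits did not share this: Psmd2 differed by 0.11 and Psmd1 by -0.18, both overlapping the other rats. Of the ATPases, Psmc2 was just below the others in both arrays (10.36 and 10.33, against 10.40 to 10.59). Psmc1, Psmc3, Psmc4 and Psmc5 overlapped, with differences from -0.15 in Psmc3 to 0.0079 in Psmc5.

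The lid subunits went both ways. Psmd13 was at 7.73 and 7.67, against 7.84 to 8.51 in rats 1 to 7, and Psmd6 at 9.56 and 9.45, against 9.66 to 9.84. Psmd11, which helps join the lid to the core, was at 9.03 and 8.98 and above the 8.48 to 8.83 of the others, a difference of 0.33. A second Psmd11 probe set did not show this: it was at 7.64 in rat 8 and 8.06 in rat 9, with a difference of -0.27 and overlapping values. The correlation of the Psmd11 probe sets was -0.283 over 9 rats (exact permutation p = 0.463, Spearman rho -0.0333, exact p = 0.948) and 0.690 in rats 1 to 7. Psmd3, Psmd7 and Psmd8 differed by 0.10, -0.17 and -0.03 and overlapped the other rats.

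Psmf1, which encodes the proteasome-binding protein PI31, had a difference of -0.64. It was at 6.93 in rat 8 and 7.07 in rat 9, and rats 1 to 7 lay higher, from 7.32 to 7.89 around a median of 7.61. The alternative activators overlapped throughout: the PA28 subunits Psme1 and Psme2 differed by -0.12 and 0.05, and Psme4 (PA200) by -0.10. The other Psme4 probe sets were flatter, with SDs of 0.0927 and 0.0318 against 0.232, and correlated with the one used at r = 0.0686 (exact permutation p = 0.873) and r = 0.281 (exact permutation p = 0.472) over 9 rats.

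Of the 7 assembly chaperones, Psmg4 and Psmd10 lay below the others in both arrays, and Psmd5 and Psmg3 in rat 8 alone. Psmd5 was at 5.67 in rat 8. In rat 9 it was at 6.93098, the median of rats 1 to 7 and the identical value of rats 3, 5 and 6. Its difference of -0.65 therefore came from 1 array. Psmg3, a chaperone of the core, had the same shape, with 5.31 in rat 8 and 6.08 in rat 9 against 5.97 to 6.33. Its partner Psmg4 was below the others in both arrays (4.12 and 3.87, against 4.39 to 4.80), as was the base chaperone Psmd10, also called gankyrin (7.14 and 7.34, against 7.36 to 7.65). Psmd9, Psmg1 and Psmg2 overlapped, with differences of -0.07, -0.04 and -0.14. Psme3ip1, which is not a subunit, was low in rat 9 (5.77) and inside the range of 6.29 to 7.12 in rat 8 (6.45).

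**Figure D2:**
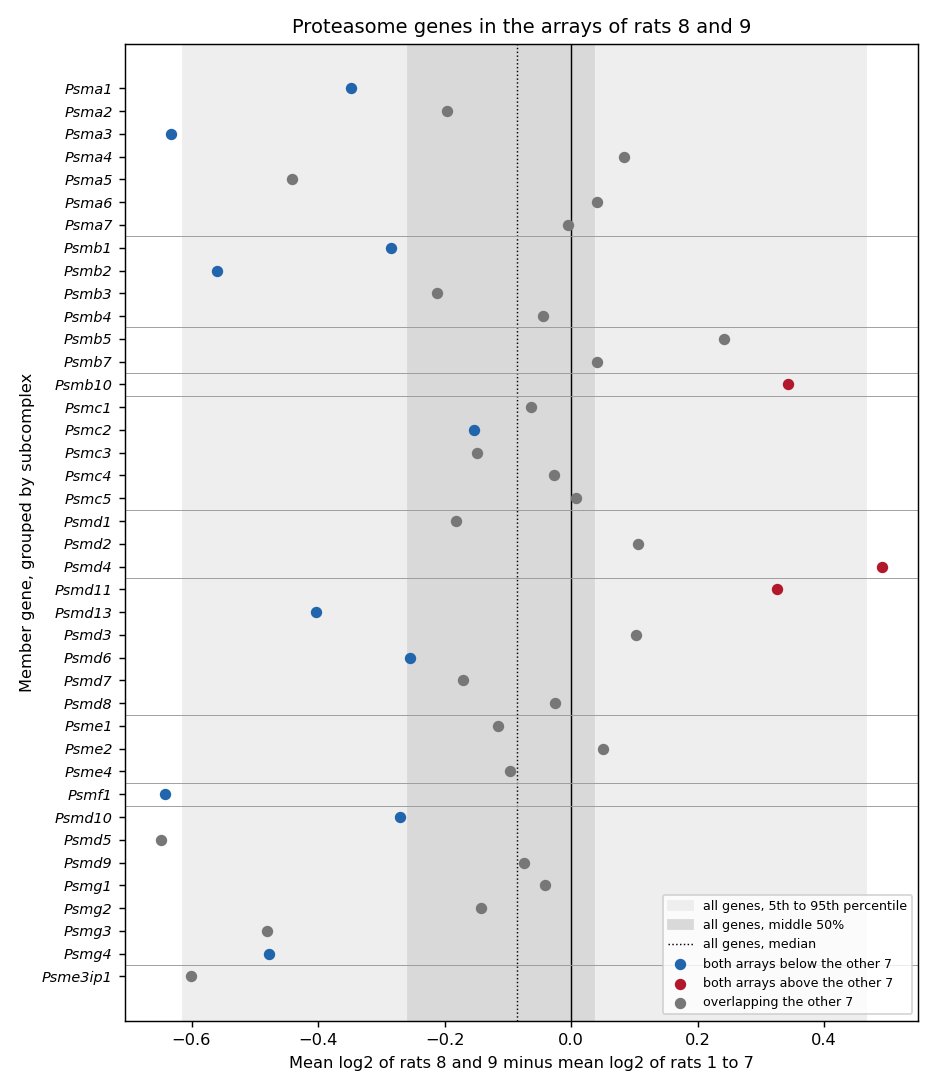
Mean log2 expression of rats 8 and 9 minus the mean of rats 1 to 7 for each of the 40 members tested, grouped by subcomplex, over the middle 50% (dark grey) and the 5th to 95th percentile (light grey) of all 6793 genes. Blue points (10 members) had both arrays below the other 7, red points (3 members) both above; most points lie left of 0, as does the dotted median of all genes at -0.0853.

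Averaged over each group of subunits, rats 8 and 9 were -0.224 and -0.204 from the mean over all rats for the beta subunits without a proteolytic site, -0.207 and -0.126 for the alpha subunits, and -0.363 and -0.111 for the chaperones. All genes tested averaged -0.0659 and -0.0723 in these arrays, so part of each negative mean was shared with the array as a whole. The catalytic beta subunits averaged 0.185 and 0.0348, and the base subunits other than ATPases 0.119 and 0.0963. The plot of differences by subcomplex shows the same spread, with blue points among the alpha subunits, the non-catalytic beta subunits, the ATPases, the lid and the chaperones, and none among the catalytic subunits. Of the 9 members below the others in both arrays that had a promoter, 7 held CCAAT and 2 held TGACNNNGC. Of the 3 above, 1 held CCAAT and 0 held TGACNNNGC, and of the 27 that overlapped, 12 and 4 did. The 27 include Psmc3ip, which lay below the filter and holds CCAAT.

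Subunits of one particle are needed in fixed ratios, but the values of their probe sets followed each other only weakly over these rats. Probe sets of the same gene also differed. Over 9 rats, r with the one used was -0.283 for Psmd11 (0.690 in rats 1 to 7) and 0.0686 and 0.281 for Psme4. The part of measurement noise in the correlations between subunits was not tested. Over the 78 pairs of alpha and constitutive beta subunits of the 20S core, the median Pearson r was 0.0091, and 0.109 in rats 1 to 7. Over the 91 pairs of 19S base and lid subunits it was 0.113, and 0.242 in rats 1 to 7. The median over the 780 pairs of all members, which include genes outside the finished particle, was 0.136. That over all pairs of genes was 0.0698. In rats 1 to 7 the medians were 0.0651 and 0.0232. These correlations share the same 9 arrays and are given as a description. All 6 pairs of the non-catalytic beta subunits were positive, with a median of 0.560, and they were so in rats 1 to 7, with a median of 0.479. The 3 alternative activators had a median of 0.486, and 0.563 in rats 1 to 7. The 21 pairs of alpha subunits had a median of 0.0027 (0.154 in rats 1 to 7), the 10 pairs of ATPases 0.179 (0.112) and the 15 pairs of lid subunits 0.0595 (0.340). The chaperones had a median of 0.271 over 9 rats and -0.261 in rats 1 to 7, so their sign turned without rats 8 and 9. The 3 pairs of the other base subunits had a median of -0.624 (-0.452 in rats 1 to 7).

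For behaviour, each probe set was fitted with a slope in log2 units per SD of the measure, an SD being 142 startle units, 173 locomotion units, 7.36 on the plus maze and 1.19 in sugar feeding. No proteasome gene passed an adjusted p of 0.05 in limma for any of the 4 measures, with 0 of 40 members and 0 of 9520 probe sets (0%) for each measure. The counts below are therefore at an unadjusted limma p of 0.05, beside the share of all genes that passed it. With startle, 2 of 40 members passed, where 12.4% of all genes did. With locomotion it was 0 of 40, where 1.91% did. With the plus maze it was 1 of 40, where 3.31% did, and with sugar feeding 1 of 40, where 1.35% did. Among rats 1 to 7 alone, 4 members passed with startle (12.6% of all genes), 0 with locomotion (4.4%), 1 with the plus maze (3.71%) and 1 with sugar feeding (2.49%).

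**Figure D3:**
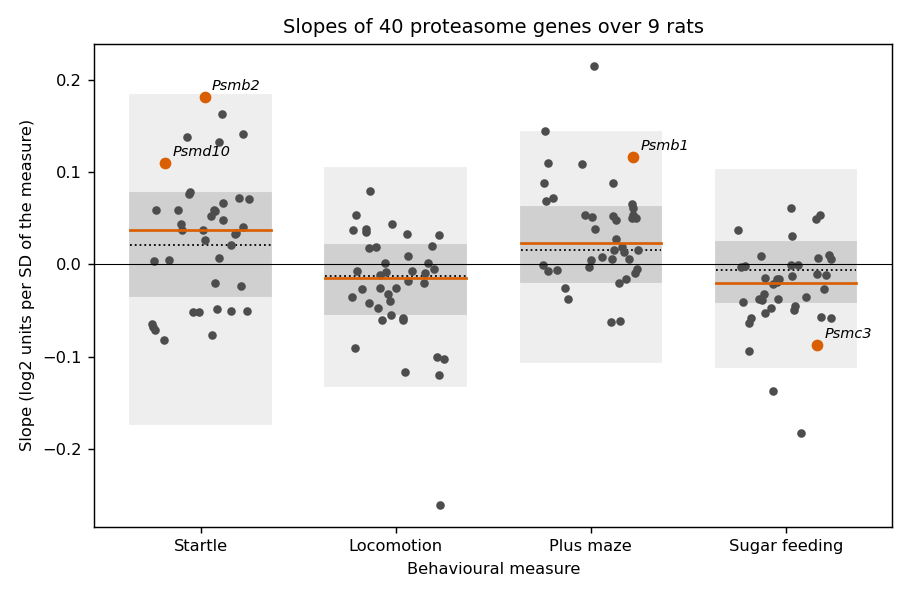
Slopes of the 40 members tested on each behavioural measure over 9 rats, in log2 units per SD of the measure; each point is 1 gene, the orange line is the members' median, the dotted line is the median of all 6793 genes, and the grey boxes hold the middle 50% and the 5th to 95th percentile of all genes. Orange points are the members past an unadjusted limma p of 0.05: Psmb2 and Psmd10 with startle, Psmb1 with the plus maze and Psmc3 with sugar feeding.

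Over all 9 rats the members leaned to the same side as the array. With startle, 28 of 40 members had a positive slope, beside 62.1% of all genes, and the median slope was 0.037 in the members and 0.021 in all genes. Without rats 8 and 9, 22 members were positive, beside 50.4% of all genes, and the medians were 0.013 and 0.00090. With locomotion 14 were positive, beside 39.1% of all genes, with medians of -0.015 and -0.013, and without rats 8 and 9 it was 17, beside 48.2%, with medians of -0.0078 and -0.0018.

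With the plus maze 28 were positive, beside 61.8%, with medians of 0.024 and 0.016. Without rats 8 and 9 it was 23, beside 52.3%, with medians of 0.017 and 0.0030. Without rats 2 and 6 the plus maze medians lay on opposite sides of 0, at -0.0077 in the members and 0.013 in all genes. With sugar feeding 9 members were positive (22.5%), beside 44.1% of all genes, with medians of -0.020 and -0.0059. Without rats 8 and 9 it was 15, beside 51.7%, and the medians lay on opposite sides, at -0.011 and 0.0011. The plot of slopes by measure shows the values over 9 rats.

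The smallest p with startle belonged to Psmb2, a beta subunit without a proteolytic site, whose promoter is printed above. Psmb2 was at 8.74 in rats 1 and 3, which had the highest startle values, at 8.71 in rat 2, 8.70 in rat 6, 8.63 in rats 4, 5 and 7, 8.29 in rat 9 and 7.96 in rat 8, which had the lowest. The order of the rats was nearly the same for both quantities, but most of the span came from rats 8 and 9. Rats 4, 5 and 7 held the identical value, 8.63157. The slope was 0.18 ± 0.068 (SE, n = 9), with a limma p of 0.0249 and an adjusted p of 0.359. Without rat 8 alone it was 0.084, with a limma adjusted p of 0.583. Pearson r was 0.689 and Spearman rho 0.898, with exact permutation p of 0.0358 and 0.0020. Rats 1 and 3 were farthest from the median startle value, and without them r was 0.702 (exact permutation p = 0.0821). In rats 1 to 7, r was 0.927 and Spearman rho 0.927, with exact permutation p of 0.0060 and 0.0095, over a range of 8.63 to 8.74. The slope there was 0.051 and its limma adjusted p 0.441.

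Psmd10, the base chaperone gankyrin, followed with a lowest value of 7.14 in rat 8, a median of 7.48 and a highest value of 7.65 in rat 3. Its slope was 0.11 ± 0.045 (SE, n = 9), with a limma p of 0.0387 and an adjusted p of 0.362, and without rat 8 alone it was 0.064. Pearson r was 0.686 and Spearman rho 0.667, with exact permutation p of 0.0406 and 0.0589. Without rats 1 and 3, r was 0.576 (exact permutation p = 0.170), and in rats 1 to 7 it was 0.458 (exact permutation p = 0.293), so the relation did not pass without either pair.

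The negative slopes with startle were smaller. The alpha subunit Psma4, at 7.46 in rat 3 to 7.85 in rat 5 with a median of 7.60, had a slope of -0.068 ± 0.042 (SE, n = 9; limma adjusted p = 0.475) and r = -0.549 (exact permutation p = 0.124; rho -0.410, exact p = 0.273). Without rats 1 and 3 its r was -0.0448 (exact permutation p = 0.926), and in rats 1 to 7 it was -0.690 (exact permutation p = 0.0675). The lid subunit Psmd3, at 7.86 in rat 6 to 8.33 in rat 2 with a median of 8.18, had a slope of -0.076 ± 0.053 (SE, n = 9; limma adjusted p = 0.524) and r = -0.471 (exact permutation p = 0.20; rho -0.517, exact p = 0.162). Its r was -0.626 (exact permutation p = 0.142) without rats 1 and 3 and -0.364 (exact permutation p = 0.409) in rats 1 to 7. The 4 members past the unadjusted limma p in rats 1 to 7 were others: Psme4, positive, and Psma5, Psmd1 and Psmg3, negative, each with a limma adjusted p of at least 0.244. Psma5 and Psmd1 are a gate subunit and a scaffold of the base.

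**Figure D4:**
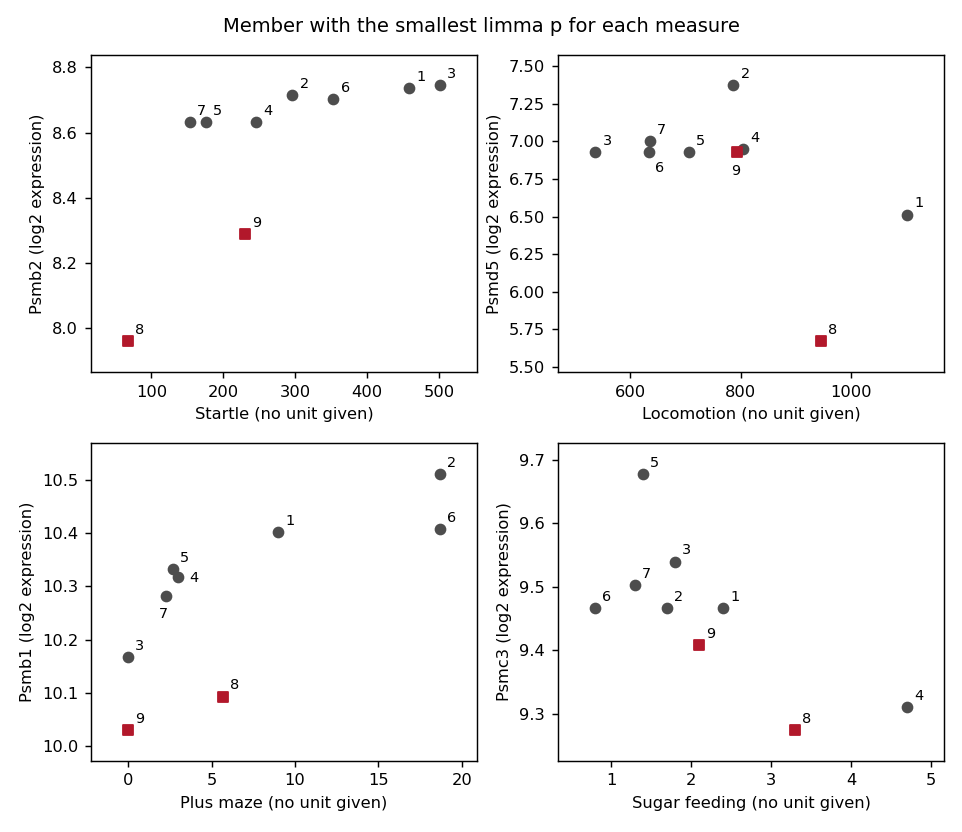
Log2 expression of the member with the smallest limma p for each measure against the measure (no unit given) in 9 rats, numbered; red squares are rats 8 and 9 and grey circles rats 1 to 7. Psmb2 in rats 1 to 7 lies within 8.63 to 8.74, Psmd5 is low in rats 1 and 8, Psmb1 is highest in rats 2 and 6, and Psmc3 is low in rats 4 and 8.

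With locomotion, the steepest slope was that of the base chaperone Psmd5. Its low values of 5.67 and 6.51 belonged to rats 8 and 1, which had the highest locomotion values, while the other 7 rats lay within 6.93 to 7.37. The slope was -0.26 ± 0.13 (SE, n = 9; limma p = 0.0848, adjusted p = 1.0), with r = -0.546 and rho = -0.392 (exact permutation p of 0.134 and 0.301). Without rats 1 and 3 the r was -0.656 (exact permutation p = 0.123), and in rats 1 to 7 it was -0.497 (exact permutation p = 0.218). The plot of leading members shows the other 7 rats close together at all their locomotion values, apart from rat 2.

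Psmg4, a chaperone of the core, lay low on the scale, not far above the filter cut of 3.22. It ran from 3.87 in rat 9 to 4.80 in rat 3, which had the lowest locomotion value, around a median of 4.40. Its slope with locomotion was -0.12 ± 0.078 (SE, n = 9; limma adjusted p = 1.0), with r = -0.472 and rho = -0.753 (exact permutation p of 0.192 and 0.0235). Its r was -0.550 (exact permutation p = 0.191) without rats 1 and 3 and -0.565 (exact permutation p = 0.163) in rats 1 to 7. The Spearman rho in rats 1 to 7 was -0.793 (exact permutation p = 0.0397). The lid subunit Psmd11, from 8.48 to 9.03 around 8.73, had a positive slope of 0.053 ± 0.062 (SE, n = 9; limma adjusted p = 1.0) and r = 0.297 (exact permutation p = 0.442; rho 0.117, exact p = 0.776). Its r was 0.629 (exact permutation p = 0.122) without rats 1 and 3 and 0.0451 (exact permutation p = 0.921) in rats 1 to 7. The slope of its second probe set was -0.080, of the opposite sign.

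With the plus maze, Psmb1, a beta subunit without a proteolytic site, had the smallest p. It was highest in rats 2 (10.51) and 6 (10.41), which share the highest plus maze value, and 10.40 in rat 1, the next. It was lowest in rat 9 (10.03), whose plus maze value was 0, and at 10.17 in rat 3, the other rat at 0. The slope was 0.12 ± 0.044 (SE, n = 9), with a limma p of 0.0255 and an adjusted p of 0.999. Pearson r was 0.738 and Spearman rho 0.798, with exact permutation p of 0.0249 and 0.0139. In rats 1 to 7, r was 0.864 and Spearman rho 0.955, with exact permutation p of 0.0024 and 0.0040, while without rats 2 and 6 it was 0.524 (exact permutation p = 0.234), so the relation did not pass without those rats. Of 5 meningeal and fibroblast markers tested, 3 passed the unadjusted limma p with the plus maze, all positive, where 3.31% of all genes did. Their median slope was 0.27, beside 0.016 for all genes. Among the markers of other cell types, 1 of 6 for astrocytes passed and no others did. A part of cell composition in the slope of Psmb1 was not tested.

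Psmb3, which neighbours Psmb2 in the ring, ran from 8.63 in rat 9 to 9.05 in rat 6 around a median of 8.92. Its slope was 0.089 ± 0.040 (SE, n = 9; limma p = 0.0532, adjusted p = 0.999), with r = 0.693 and rho = 0.681 (exact permutation p of 0.0385 and 0.0504). Its r was 0.627 (exact permutation p = 0.142) without rats 2 and 6 and 0.779 (exact permutation p = 0.0492) in rats 1 to 7. The Spearman rho in rats 1 to 7 was 0.685 (exact permutation p = 0.102). On the negative side stood the alpha subunit Psma7, from 9.69 to 10.16 around 9.77, whose high value was that of rat 3. Its slope was -0.062 ± 0.055 (SE, n = 9; limma adjusted p = 0.999), with r = -0.389 (exact permutation p = 0.298; rho -0.261, exact p = 0.494), -0.215 (exact permutation p = 0.637) without rats 2 and 6 and -0.465 (exact permutation p = 0.284) in rats 1 to 7. Psmd11 had a slope of -0.061 ± 0.061 (SE, n = 9; limma adjusted p = 0.999), with r = -0.342 (exact permutation p = 0.372; rho -0.311, exact p = 0.410), -0.0127 (exact permutation p = 0.985) without rats 2 and 6 and -0.212 (exact permutation p = 0.693) in rats 1 to 7.

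With sugar feeding, the ATPase Psmc3 had the smallest p. It was at 9.27 in rat 8 and 9.31 in rat 4, whose sugar feeding values were the highest, and at 9.41 to 9.68 in the other 7 rats around a median over all rats of 9.47. The slope was -0.087 ± 0.038 (SE, n = 9; limma p = 0.0465, adjusted p = 1.0), with r = -0.726 and rho = -0.678 (exact permutation p of 0.0293 and 0.0515). Without rats 4 and 8 the r was -0.285 (exact permutation p = 0.536), so the relation rests on those rats; in rats 1 to 7 it was -0.702 (exact permutation p = 0.129). Psmb4, a beta subunit without a proteolytic site, ran from 10.77 to 11.01, the highest in rat 6, which had the lowest sugar feeding value, around a median of 10.83. Its slope was -0.049 ± 0.034 (SE, n = 9; limma adjusted p = 1.0), with r = -0.613 (exact permutation p = 0.0761; rho -0.628, exact p = 0.0773), -0.551 (exact permutation p = 0.203) without rats 4 and 8 and -0.590 (exact permutation p = 0.163) in rats 1 to 7. The ubiquitin receptor Psmd4 was the member past the unadjusted limma p in rats 1 to 7, with a negative slope of -0.11.

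The catalytic subunits were followed with every measure whether or not they passed. Psmb5 ran from 10.35 in rat 7 to 10.85 in rat 8 around a median of 10.61, and its largest slope was that with locomotion, 0.080 ± 0.051 (SE, n = 9; limma adjusted p = 1.0). Its r with locomotion was 0.514 (exact permutation p = 0.157; rho 0.527, exact p = 0.150), 0.844 (exact permutation p = 0.0246) without rats 1 and 3, and 0.379 (exact permutation p = 0.418) in rats 1 to 7. With startle its r was -0.418 (exact permutation p = 0.263; rho -0.218, exact p = 0.572), -0.0895 without rats 1 and 3 (exact permutation p = 0.861), and 0.0023 in rats 1 to 7 (exact permutation p = 0.995), where the negative sign was gone. With the plus maze its r was 0.326 (exact permutation p = 0.388; rho 0.468, exact p = 0.203), 0.256 (exact permutation p = 0.577) without rats 2 and 6 and 0.756 (exact permutation p = 0.0571) in rats 1 to 7. The Spearman rho of Psmb5 with the plus maze in rats 1 to 7 was 0.882 (exact permutation p = 0.0115). Sugar feeding gave an r of 0.392 (exact permutation p = 0.298; rho 0.418, exact p = 0.263), 0.145 (exact permutation p = 0.741) without rats 4 and 8 and 0.242 (exact permutation p = 0.623) in rats 1 to 7.

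Psmb7 ran from 10.41 in rat 7 to 10.78 in rat 3 around a median of 10.65, with the other 7 rats between 10.60 and 10.75. Its r was 0.309 with startle (exact permutation p = 0.429; rho 0.25, exact p = 0.521), 0.191 with locomotion (exact permutation p = 0.614; rho 0.217, exact p = 0.581), and -0.0071 with the plus maze (exact permutation p = 0.985; rho -0.0336, exact p = 0.938). With sugar feeding r was 0.463 (exact permutation p = 0.209; rho 0.667, exact p = 0.0589), 0.364 (exact permutation p = 0.427) without rats 4 and 8 and 0.386 (exact permutation p = 0.310) in rats 1 to 7. The Spearman rho with sugar feeding in rats 1 to 7 was 0.786 (exact permutation p = 0.0480). Without the farthest pair of rats, r was -0.0512 with startle (exact permutation p = 0.906), 0.792 with locomotion (exact permutation p = 0.0331) and 0.0861 with the plus maze (exact permutation p = 0.839). In rats 1 to 7, r was 0.654 with startle (exact permutation p = 0.0984), 0.0711 with locomotion (exact permutation p = 0.862) and -0.0273 with the plus maze (exact permutation p = 0.960). In the main fit over all rats, the lowest limma adjusted p of a slope of either catalytic subunit was 0.584, that of Psmb5 with startle. In rats 1 to 7 the limma adjusted p of Psmb7 with startle was lower, at 0.436.

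Genes that work with the proteasome were counted from 4 lists. Of 25 proteasome partners (shuttle factors, regulators of transcription and assembly, accessory subunits), 15 were tested. Both arrays of rats 8 and 9 were below the others in 4 of them and above in 1, against 19.7% and 6.58% of all genes. The 4 were the small lid subunit Sem1, the core chaperone Pomp, the shuttle factor Ubqln2 and Txnl1, a thioredoxin-like protein of the 19S particle, and the 1 was the scaffold Ecpas. Txnl1 was at 8.45 in rat 8 and 9.11 in rat 9 and at 9.58 to 9.99 in the others, a difference of -0.96 that exceeded that of every member. With startle, 1 of the 15 partners passed the unadjusted limma p, beside 12.4% of all genes. It was the ubiquitin receptor Adrm1 (Rpn13), at 7.32 in rat 1 and 8.00 in rat 7. Its slope was -0.13 ± 0.049 (SE, n = 9, limma adjusted p = 0.359), and -0.16 in rats 1 to 7. Among the partners' slopes with startle, those of Txnl1 (0.22, but -0.065 in rats 1 to 7) and Ube3c (0.061, and 0.078), a ubiquitin ligase bound to the proteasome, had limma adjusted p of 0.494 and 0.569.

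Of 36 genes of ubiquitin and its conjugation, 24 were tested, of which 23 are conjugating enzymes. In both arrays of rats 8 and 9, 7 were low and 4 high, beside 19.7% and 6.58% of all genes. The 7 low genes were Ube2d1 (difference -1.01), Ube2d2 (-0.54), Ube2e3 (-0.50), Ube2q2 (-0.46), Ube2v2 (-0.41), Ube2j2 (-0.30) and Ube2o (-0.27). The 4 high genes were Ube2j1 (0.48), Ube2k (0.24), Ube2r2 (0.62) and Cdc34 (0.57). With startle 2 of the 24 passed the unadjusted limma p, beside 12.4% of all genes: Ube2k (-0.10, and -0.074 in rats 1 to 7) and Ube2r2 (-0.23, and -0.13), each with a limma adjusted p of 0.359. Of 22 genes of the p97 unfoldase complex, which extracts proteins for degradation, 14 were tested, 2 low and 1 high. The low ones were the cofactor Ufd1 (difference -0.84) and the ubiquitin ligase Ube4a (-0.18). The high one was Vcp, the unfoldase itself, at 9.96 and 9.98 against 9.58 to 9.81. With startle, 1 of the 14 passed the unadjusted limma p, beside 12.4% of all genes. This was the p97 cofactor Plaa, with a slope of 0.35 ± 0.12 (SE, n = 9, limma adjusted p = 0.359). Its value of 5.52 in rat 8 lay far below the 6.61 to 7.12 of the other 8 rats. Its slope in rats 1 to 7 was 0.13. Of 13 genes of class I antigen presentation, which display the peptides the proteasome makes, 3 were tested, and 0 lay outside the other rats in both arrays. The smallest startle p of these was that of RT1-CE5, with a slope of 0.087 ± 0.042 (SE, n = 9, limma adjusted p = 0.397) and of 0.11 in rats 1 to 7. RT1-CE5, at 3.03 to 3.46, lay around the filter cut of 3.22, as did RT1-A3, another of the 3, at 3.05 to 3.50. The median slope with startle was 0.047 for the partners, -0.012 for conjugation, 0.019 for p97 and 0.072 for antigen presentation, beside 0.021 for all genes. Without rats 8 and 9 these medians were -0.044, -0.045, -0.038 and 0.091, beside 0.00090.

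With the plus maze, 3 of the 56 list genes tested passed the unadjusted limma p, beside 3.31% of all genes, each singled out here after its value was seen. The transcription factor Nfe2l1 (NRF1), named above for its binding element, had a slope of 0.14 (0.13 in rats 1 to 7), and Ddi2, the protease known to process NRF1, a slope of -0.13 (-0.12). The class I light chain B2m had a slope of 0.11 (0.10). No probe set passed an adjusted p of 0.05 with this measure, and no gene of the 4 lists passed the unadjusted limma p with locomotion or sugar feeding.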

How the data were processed

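The values are log2 expression per probe set as deposited. The submitters' processing notes name GCRMA and R 2.6.2, and the settings the authors used were not given in the sources used here. GCRMA corrects background, normalizes between arrays and summarises probes, and 47.0% of the probe sets tested had the same value, identical in every deposited digit, on at least 2 arrays. The highest correlation between arrays was 0.998. The rats are separate animals with 1 array each, so the spread holds differences between animals and between arrays, and precision is bounded by how many arrays there are.

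Of 15923 probe sets, 57 controls and then the lowest 40% by mean (below 3.22 log2 units) were left out, which kept 9520. Names came from the platform annotation (12783 probe sets with 1 symbol, 312 with several, 2771 with none). Slopes per SD of each measure were fitted by lmFit and eBayes of limma 3.58.1 under R 4.3.3 (7 residual degrees of freedom), two-sided, with Benjamini-Hochberg adjustment over the 9520 probe sets per measure. Each of the 40 members was fitted against each of 4 measures. Correlations were tested two-sided over all 362880 orders of 9 rats or 5040 of 7 (Python 3.11.15, numpy 2.4.6, pandas 2.3.3; the smallest p these can give is 2.76e-06 or 0.000198). Figures used matplotlib 3.10.9. The fit was tested on simulated data.

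Named with full values were, per measure, the 2 members with the smallest limma p in each direction, the constitutive catalytic subunits with their own probe sets, the 3 members with the largest difference of rats 8 and 9 in each direction, and up to 3 genes per list by startle p. Psmb6 has no probe set of its own here and was not analysed here. The members, the lists and the pair of arrays were chosen with earlier results of these data known. Alternatives changed the filter, normalization, moderation, scale of the measure, array weights, the rats included and the probe set per gene.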

Additional observations from a re-analysis of the deposited data

Results flagged for a closer look

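In 6 of the 41 members, 1 rat lay apart from the other 8, its gap to the nearest other rat being a larger share of the whole range than Dixon's 95% critical value for 9 samples; chance alone marks about 1 in 20 groups in this way. All 6 were among the 40 members tested (15%), beside 20.8% of all genes tested. The catalytic subunit Psmb7 was at 10.41 in rat 7, the next rat being at 10.60. The base chaperone Psmd5 was at 5.67 in rat 8, with the next at 6.51, and the core chaperone Psmg3 at 5.31 in rat 8, with the next at 5.97. The lid subunit Psmd8 was at 7.75 in rat 3, with the next at 7.94. The chaperones Psmd9 and Psmg1 were highest in rat 6, at 4.13 and 6.85, the next rats being at 4.02 and 6.66. No cause was tested.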

How the results depend on the processing

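No member passed an adjusted limma p of 0.05 under any of the 19 alternatives run per measure. The lowest limma adjusted p of a named relation was 0.238. A member outside the named relations came lower, at a limma adjusted p of 0.16 with the plus maze and array weights. The counts of members in which rats 8 and 9 lay apart stayed within 1.5 times under every alternative run. The counts at an unadjusted limma p did not. The share of all genes was counted for only some of the alternatives. With startle, 2 became 1 with trended, robust moderation (Psmb2) and 0 with array weights (10.2% of all genes). Without rats 8 and 9 it was 4 (12.6% of all genes). Leaving out 1 rat gave 1 to 2, with 1 without rat 3. The 2 were Psme4 and Psmg3 without rat 8, Psmb2 and Psmb5 without rat 7, and Psmb2 and Psmg4 without rat 9. With locomotion, 0 became 4 without rats 1 and 3 (Psmb2, Psmb5, Psmf1 and Psmg3, beside 13.5% of all genes). Leaving out 1 rat gave 0 to 3, with 3 without rat 1 (9.86% of all genes). With the plus maze, 1 became 3 without the filter, 2 with renewed quantile normalization, 2 with trended moderation and 2 on ranks. It was 9 with array weights (13.1% of all genes) and 2 with a term for rats 8 and 9 (3.34%). It was 0 without rats 2 and 6 (1.6% of all genes) and 3 with the mean of a gene's probe sets. Leaving out 1 rat gave 0 to 2 (0 without rat 2 or rat 9). With sugar feeding, 1 became 0 with the lowest 70% left out, 0 with quantile normalization and 0 with array weights (1.66% of all genes). Leaving out 1 rat gave 0 to 5, with 5 without rat 4 (13.3% of all genes). The median slope with the plus maze was -0.0077 without rats 2 and 6. Of 21 named relations, 16 kept their sign throughout. The slope of Psmb5 with startle was 0.00029 without rats 8 and 9, that of Psmb7 with startle -0.0082 without rats 1 and 3, and that of Psmd11 with locomotion -0.013 with the mean of its probe sets. Psmb7 with the plus maze, near 0 throughout, was 0.0094 on ranks, 0.0050 with a term for rats 8 and 9, 0.024 without rats 2 and 6 and -0.021 to 0.019 without 1 rat, and Psmb7 with locomotion was -0.0058 to 0.063 without 1 rat. The cause was not tested. No paired analysis was possible because the rats form 1 group.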
